A study of Arabidopsis thaliana with 4 samples.

Results

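The nuclear-encoded proteins of the plastid ribosome were examined through the transcripts of 40 genes. The genes were chosen by locus identifier, as those annotated for a protein of the large plastid ribosomal subunit (PRPL, 25 genes), of the small subunit (PRPS, 9 genes) or as a plastid-specific ribosomal protein (PSRP, 6 genes). They are 40 of the 33602 gene entries in the expression table, and 39 of them are among the 17684 tested genes. A gene was tested where all 4 libraries gave it a value and their mean reached 1 RPKM, the reads on a gene corrected for its length and for library size. The remaining gene, RPL12-B (AT3G27840), is listed without any value. Whole Arabidopsis thaliana seedlings, wild type in the Col-0 background, had been grown for 4 days in darkness on plates. They were then either kept dark or given 4 h of white light, and from each state 1 library was made of total mRNA and 1 of polysomal mRNA, the transcripts sedimenting with several ribosomes. All 4 groups therefore share genotype and age, and differ in light and in RNA fraction. Total and polysomal RNA had been extracted by different protocols, so fraction and extraction cannot be told apart.

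Plastids translate their own small genome on ribosomes of bacterial type, whose RNAs and a minority of whose proteins are encoded in the plastid, while the other proteins are made in the cytosol from nuclear genes and imported. Most of the imported proteins are counterparts of bacterial ribosomal proteins and carry the same number. The plastid-specific proteins have no counterpart among the core proteins of the bacterial ribosome. In a dark-grown seedling the plastid is an etioplast, and on illumination it turns into a chloroplast, whose photosynthetic complexes are built partly from proteins made on these ribosomes.

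The listed reads per library ran from 61006149 to 91087442, and the members had between 1107 and 68999 reads in a library, so counting error on their ratios was small. With 1 library per group no difference has a replicate check, no test between groups was possible, and the 95% intervals given after a fold cover counting error only. Ratios are log2 of (RPKM + 1), which slightly understates changes, and "higher" or "lower" in a count means at least 2-fold on that scale. Of the 5 markers of the light state, PORA, PIL1, ELIP1, HY5 and CHS, 3 were higher and 2 lower in light in both fractions, from a log2 light ratio in total mRNA of -5.21 for PORA, the protochlorophyllide reductase of etiolated seedlings, to 5.84 for ELIP1, an early light-induced protein. In whole seedlings a change in the number of cells or plastids and a change in RNA per cell cannot be told apart.

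After 4 h of light the transcripts of plastid ribosomal proteins were more abundant in total mRNA as a group. All 39 measured members had a light ratio above 0, where 51.3% of all tested genes lay below 0. That of PSRP1 was -0.0034 with nuclear library sums set equal and -0.06 with the trend with gene length removed. Of the members, 34 were at least 2-fold higher and 0 lower, where 10.7% of all tested genes were higher and 5.73% lower. The median log2 ratio of the members was 1.61, against -0.02 for all tested genes. Summed over the members, RPKM were 2.82-fold higher in light, and their share of the listed reads went from 0.209% to 0.576%. The median member stood at 49.1 RPKM in dark and 143.9 RPKM in light. In total mRNA the highest member stood at 8.94 times the lowest in the dark and 3.37 times in the light. On polysomes the range was 12.5 times in the dark and 15.2 times in the light, where the lowest member was PSRP1 at 107 RPKM. Without the plastid-specific proteins the polysomal range did not widen much, at 7.03 and 5.63 times in the large subunit and 3.20 and 3.39 times in the small subunit, dark and light. Members with a low dark level tended to have a high light ratio (Pearson r -0.75, Spearman rho -0.74 over 39 genes, a description only, since the dark library enters both values).

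**Figure D1:**
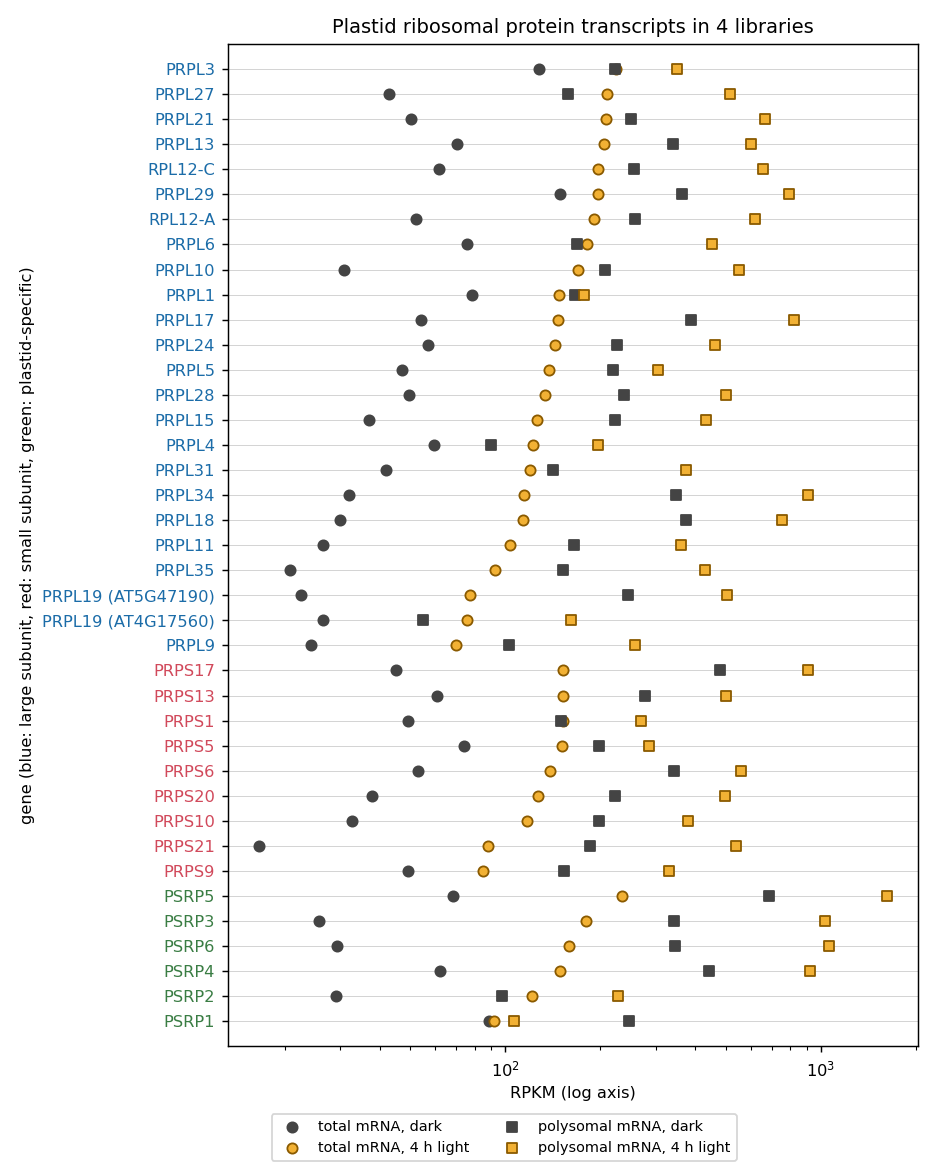
RPKM of the 39 measured members on a log axis in 4 libraries, circles for total and squares for polysomal mRNA, dark grey for the dark and yellow for 4 h of light, with names coloured by class and sorted by level in total light. Yellow circles lie right of grey ones for every member, and PSRP1 is the 1 gene whose yellow square lies left of its grey square.

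The 3 classes differed from dark to light in the same direction. In total mRNA 21 of 24 large subunit members, 8 of 9 small subunit members and 5 of 6 plastid-specific members were higher in light, with median log2 ratios of 1.53, 1.61 and 1.90. The summed RPKM were 2.77-fold, 2.78-fold and 3.09-fold higher, values that lie close together. Members within a class differed far more than the class medians, from 0.40 to 2.42 in the large subunit, from 0.78 to 2.34 in the small subunit and from 0.05 to 2.77 among the plastid-specific proteins.

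The 3 members with the highest light ratios in total mRNA were PSRP3, PRPL10 and PSRP6. PSRP3 (AT1G68590, chr1:25757404-25758411), a plastid-specific protein of the small subunit, had 25.7 RPKM in the dark and 181 RPKM in the light in total mRNA, 7.03-fold (6.64 to 7.45) higher, and 342 and 1029 RPKM in polysomal mRNA. PRPL10 (AT5G13510, chr5:4341262-4342095), which in bacteria anchors the flexible stalk that recruits translation factors, had 30.8 RPKM in the dark and 169.6 RPKM in the light in total mRNA, 5.51-fold (5.25 to 5.79) higher, and 206 and 551 RPKM in polysomal mRNA. PSRP6 (AT5G17870, chr5:5907589-5908464), a small plastid-specific protein of the large subunit, had 29.3 RPKM in the dark and 159.5 RPKM in the light in total mRNA, 5.44-fold (5.11 to 5.79) higher, and 344 and 1064 RPKM in polysomal mRNA. All 3 were among the less abundant members in total dark, and each was higher in light in both fractions.

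At the other end stood PSRP1, PRPL29 and PRPS9. PSRP1 (AT5G24490, chr5:8365601-8367460), a homologue of the bacterial factors that bind idle ribosomes during hibernation, had 88.5 RPKM in the dark and 91.8 RPKM in the light in total mRNA, 1.04-fold (1.01 to 1.07), and 247 and 107 RPKM in polysomal mRNA. PRPL29 (AT5G65220, chr5:26061165-26062682), whose bacterial counterpart sits at the exit of the peptide tunnel, had 149 RPKM in the dark and 196 RPKM in the light in total mRNA, 1.32-fold (1.28 to 1.36), and 362 and 794 RPKM in polysomal mRNA. PRPS9 (AT1G74970, chr1:28157386-28159317), whose bacterial counterpart reaches the transfer RNA in the decoding site, had 49.3 RPKM in the dark and 85.2 RPKM in the light in total mRNA, 1.73-fold (1.66 to 1.80), and 154 and 329.6 RPKM in polysomal mRNA. PRPL29 had the highest dark level of all 39 members in total mRNA, and PSRP1 the third highest, while in the light both lay inside the range of the other members.

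The remaining members are described by position in the ribosome. Around the stalk, PRPL11, which in bacteria forms its base, had 26.4 RPKM in the dark and 104 RPKM in the light in total mRNA, 3.93-fold (3.73 to 4.14) higher, and 166 and 360.1 RPKM in polysomal mRNA. PRPL1, which forms the opposite, movable stalk beside the exit site, had 78.3 RPKM in the dark and 148 RPKM in the light in total mRNA, 1.88-fold (1.84 to 1.94), and 167 and 177 RPKM in polysomal mRNA. PRPL6, whose bacterial counterpart lies near the factor-binding site, had 75.8 RPKM in the dark and 181 RPKM in the light in total mRNA, 2.39-fold (2.32 to 2.46), and 168 and 451 RPKM in polysomal mRNA. Of these, PRPL11 was far lower than the others in the dark and closer to them in the light, and PRPL1 was almost level between dark and light on polysomes.

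Among large subunit proteins whose bacterial counterparts bind early in assembly, PRPL3 had 128 RPKM in the dark and 225 RPKM in the light in total mRNA, 1.75-fold (1.71 to 1.79), and 222 and 349.9 RPKM in polysomal mRNA. PRPL4, which also lines the peptide tunnel, had 59.4 RPKM in the dark and 122 RPKM in the light in total mRNA, 2.06-fold (2.00 to 2.12), and 90.02 and 196 RPKM in polysomal mRNA. PRPL13 had 70.5 RPKM in the dark and 206 RPKM in the light in total mRNA, 2.92-fold (2.83 to 3.02), and 339.6 and 601 RPKM in polysomal mRNA. PRPL24 differed by 2.54-fold (2.44 to 2.64) in total mRNA, from 56.8 to 144 RPKM, and by 2.03-fold (1.99 to 2.08) on polysomes, from 226 to 461 RPKM. The light ratios of these 4 in total mRNA lay below that of the median member, and PRPL3 did not reach 2-fold in either fraction.

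PRPL5 and PRPL18, whose bacterial counterparts hold the small ribosomal RNA of the large subunit, had larger light ratios in total mRNA than on polysomes. PRPL5 had 47.1 RPKM in the dark and 137 RPKM in the light in total mRNA, 2.91-fold (2.81 to 3.02), and 219 and 305 RPKM in polysomal mRNA, 1.39-fold (1.36 to 1.42). PRPL18 had 30.0 RPKM in the dark and 114 RPKM in the light in total mRNA, 3.80-fold (3.61 to 4.01), and 375 and 750.0 RPKM in polysomal mRNA, 2.00-fold (1.97 to 2.04). The light ratio of PRPL5 thus lay above 2-fold in total mRNA and below it on polysomes. A gene that overlaps PRPL5 had 104% of its RPKM in total dark, and the part of this in the ratios was not tested. PRPL27, which in bacteria reaches into the peptidyl transferase centre, had 42.8 RPKM in the dark and 210.2 RPKM in the light in total mRNA, 4.91-fold (4.72 to 5.11), and 158 and 514 RPKM in polysomal mRNA, and its polysomal light ratio, log2 1.69, was the highest of the members. PRPL15 had 37.1 RPKM in the dark and 126 RPKM in the light in total mRNA and 222 and 431 RPKM in polysomal mRNA. PRPL21 had 50.4 RPKM in the dark and 208 RPKM in the light in total mRNA and 249 and 664 RPKM in polysomal mRNA. In total light these were higher by 3.38-fold (3.25 to 3.52) and 4.13-fold (3.98 to 4.30).

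The other large subunit members were PRPL9, PRPL17, PRPL28, PRPL31, PRPL34 and PRPL35. PRPL35 was the least abundant of the large subunit in total dark, with 20.8 RPKM in the dark and 93.0 RPKM in the light in total mRNA, 4.48-fold (4.201 to 4.77), and 152 and 429 RPKM in polysomal mRNA. PRPL34 had 31.9 RPKM in the dark and 115 RPKM in the light in total mRNA, 3.60-fold (3.43 to 3.78), and 347 and 909 RPKM in polysomal mRNA. PRPL9 had the lowest level of all members in total light, with 24.2 RPKM in the dark and 69.7 RPKM in the light in total mRNA, 2.87-fold (2.73 to 3.03), and 103 and 258 RPKM in polysomal mRNA. The light ratios of these 3 lay well above 2-fold in both fractions. PRPL17, at the tunnel exit in bacteria, had 54.2 RPKM in the dark and 147 RPKM in the light in total mRNA and 386 and 821 RPKM in polysomal mRNA. PRPL28 had 49.6 RPKM in the dark and 133.8 RPKM in the light in total mRNA and 237 and 502 RPKM in polysomal mRNA. PRPL31, which in bacteria bridges the subunits, had 41.8 RPKM in the dark and 119.5 RPKM in the light in total mRNA and 142 and 373 RPKM in polysomal mRNA. These were 2.72-fold (2.64 to 2.80), 2.70-fold (2.58 to 2.83) and 2.86-fold (2.74 to 2.99) higher in total light.

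In the small subunit, PRPS21, whose bacterial counterpart lies on the platform near the start of translation, had the lowest level of all members in total dark and the highest light ratio of its class. It had 16.6 RPKM in the dark and 88.1 RPKM in the light in total mRNA, 5.30-fold (4.998 to 5.62), and 186 and 538 RPKM in polysomal mRNA. PRPS1, an RNA-binding protein that in bacteria brings messengers to the ribosome, had 49.1 RPKM in the dark and 152 RPKM in the light in total mRNA, 3.10-fold (3.01 to 3.20), and 149.7 and 269 RPKM in polysomal mRNA. PRPS5, at the entry of the messenger channel in bacteria, had 74.2 RPKM in the dark and 151 RPKM in the light in total mRNA, 2.04-fold (1.98 to 2.10), and 198 and 285 RPKM in polysomal mRNA. PRPS1 and PRPS5 had similar levels in total light and less than PRPS21 on polysomes in the light. PRPS6, a platform protein in bacteria, had 52.8 RPKM in the dark and 139 RPKM in the light in total mRNA and 342 and 558 RPKM in polysomal mRNA. PRPS10, a protein of the subunit head, had 32.7 RPKM in the dark and 117 RPKM in the light in total mRNA and 199 and 380.0 RPKM in polysomal mRNA. PRPS13, also of the head, had 60.8 RPKM in the dark and 152 RPKM in the light in total mRNA and 277 and 502 RPKM in polysomal mRNA. All 3 were higher in total light, 2.62-fold (2.52 to 2.73), 3.59-fold (3.45 to 3.73) and 2.51-fold (2.42 to 2.59), and under 2-fold on polysomes. PRPS17 and PRPS20 bind the ribosomal RNA early in bacterial assembly. PRPS17 had 44.9 RPKM in the dark and 153 RPKM in the light in total mRNA, 3.39-fold (3.24 to 3.56), and 479.9 and 912 RPKM in polysomal mRNA. PRPS20 had 37.8 RPKM in the dark and 127 RPKM in the light in total mRNA, 3.37-fold (3.22 to 3.52), and 222 and 496 RPKM in polysomal mRNA.

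On polysomes the members were also more abundant in light, by less. In that comparison 26 members were higher and 1 lower, with 9.35% of all tested genes higher and 10.3% lower, and the median log2 ratio was 1.12 against -0.17 for all tested genes. Their share of listed polysomal reads went from 0.858% to 1.79%, and their summed RPKM were 2.17-fold higher. Of the 39 members, 24 were higher in both fractions, 10 in total mRNA alone and 2, PRPL29 and PRPS9, on polysomes alone. The same split was not counted for all tested genes. It depends on the 2-fold limit, since the polysomal log2 ratios of those 10 ran from 0.47 for PRPL5 up to 0.999 for PRPL18. With ratios centred on the median of well-expressed genes, 33 members in place of 26 were higher on polysomes. The highest polysomal light ratios were those of PRPL27 and PSRP6, 1.69 and 1.63, and the lowest those of PSRP1 and PRPL1, -1.20 and 0.09. Across the 39 members the light ratios of the fractions had a Pearson r of 0.69 and a Spearman rho of 0.59, against 0.87 and 0.85 over all tested genes. The members' ratios in total mRNA ran only from 0.05 to 2.77, against -5.65 to 6.78 for all tested genes. A narrower range lowers such coefficients, so the 2 sets cannot be compared directly.

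By class, 18 of 24 large subunit members, 3 of 9 small subunit members and 5 of 6 plastid-specific members were higher on polysomes in light, with medians of 1.12, 0.93 and 1.23. The 3 small subunit members past 2-fold were PRPS21, PRPS20 and PRPS9, at log2 1.53, 1.15 and 1.10. Most of the other 6 lay just inside the threshold, PRPS10 at 0.93, PRPS17 at 0.93, PRPS13 at 0.86 and PRPS1 at 0.84, with PRPS6 at 0.71 and PRPS5 at 0.53. Summed RPKM on polysomes were 2.21-fold, 1.93-fold and 2.30-fold higher for the 3 classes, values much closer than the counts.

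**Figure D2:**
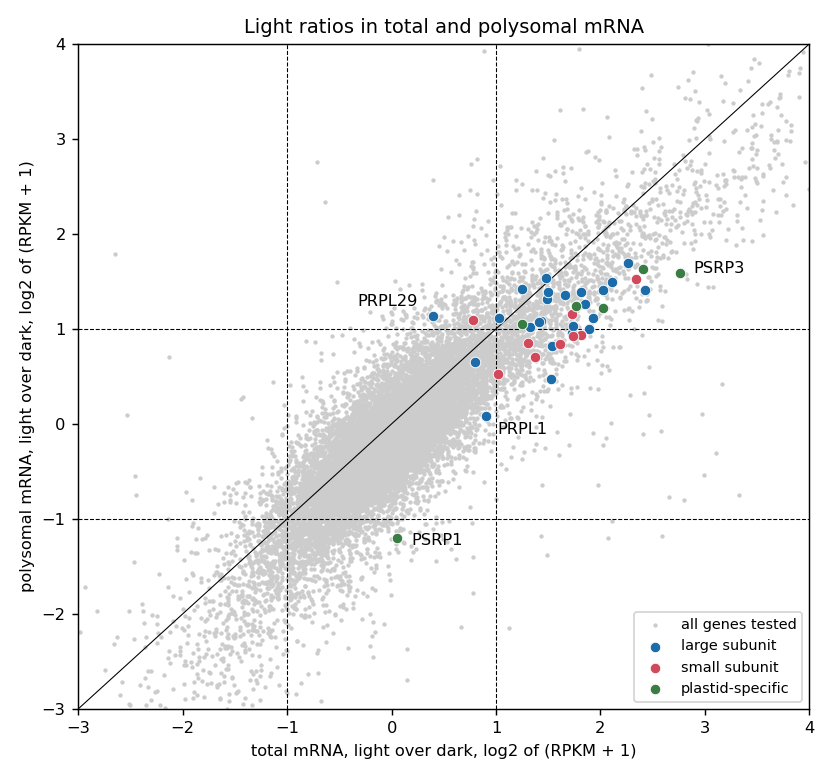
Log2 light ratio of (RPKM + 1) in total mRNA (horizontal) against polysomal mRNA (vertical) for the 17684 tested genes in grey and the 39 members in colour, with dashed lines at 2-fold and a line of equality; 191 genes lie outside the axes. Most coloured points lie right of the vertical 2-fold line and below the line of equality, PSRP1 lies at -1.20 on the vertical axis, and PRPL29 lies above the line.

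PSRP1 was the 1 member that was lower on polysomes in light. Its RPKM there were 247 in the dark and 107 in the light, a log2 ratio of -1.20, while in total mRNA the values were 88.5 and 91.8, a log2 ratio of 0.05. The locus overlaps the 3' part of AT5G24500 on the opposite strand, and the deposited polysomal reads of PSRP1 are not whole. The overlapping gene had 17.3, 13.99, 19.3 and 15.2 RPKM in total dark, total light, polysomal dark and polysomal light, at most 19.6% of PSRP1. With ratios centred on the median of well-expressed genes the polysomal ratio of PSRP1 was -0.98, inside the 2-fold limit.

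The other plastid-specific proteins were all higher in light in both fractions. PSRP5, a protein of the large subunit, was the most abundant member in 3 of the 4 libraries, with 68.3 RPKM in the dark and 235 RPKM in the light in total mRNA, 3.44-fold (3.31 to 3.58), and 686 and 1619 RPKM in polysomal mRNA, 2.36-fold (2.33 to 2.39). PSRP4, a protein of the small subunit, had 62.2 RPKM in the dark and 149 RPKM in the light in total mRNA, 2.39-fold (2.28 to 2.51), and 443 and 921 RPKM in polysomal mRNA, 2.08-fold (2.05 to 2.12). PSRP2, a protein with RNA recognition motifs, had 29.1 RPKM in the dark and 122 RPKM in the light in total mRNA, 4.18-fold (4.01 to 4.36), and 97.5 and 228 RPKM in polysomal mRNA, 2.34-fold (2.28 to 2.40). On polysomes in the light PSRP5, PSRP6 and PSRP3 were the 3 most abundant of the 39 members per kilobase, and PSRP4 was the fourth, whereas PSRP2 and PSRP1 were among the 5 least abundant.

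Members were more abundant per kilobase in polysomal than in total mRNA in both states. The polysomal ratio used here is the RPKM in the polysomal library over that in the total library of the same state, so it is relative to other transcripts and is no fraction of molecules on ribosomes. In the dark 37 of 39 members were higher and 0 lower in polysomal mRNA, with 16.5% of all tested genes higher and 16.2% lower, and the median log2 ratio was 2.25 against -0.14. In the light 32 were higher and 0 lower, with 12.8% of all tested genes higher and 21.4% lower, and the median was 1.73 against -0.31. Those 32 were higher in both states. Summed RPKM of the members were 4.89 times those of total mRNA in the dark and 3.76 times in the light.

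PSRP3 and PRPL18 had the highest polysomal ratios in the dark, log2 3.69 and 3.60, or 13.3-fold (12.6 to 14.1) and 12.5-fold (11.9 to 13.1). PRPL4 and PRPL3 had the lowest, 0.59 and 0.79, and were the 2 members under 2-fold there. In the light PRPL34 and PSRP5 led with 2.98 and 2.78, and PSRP1 and PRPL1 came last with 0.22 and 0.26, which turned to -0.38 and -0.33 with nuclear library sums set equal. The class medians in the dark were 2.22 for the large subunit, 2.53 for the small subunit and 3.06 for the plastid-specific proteins. In the light they were 1.69, 1.94 and 2.56 in the same order.

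Gene length moved with these ratios. The members are short, 0.58 to 1.72 kb with a median of 1.00 kb, and the plastid-specific genes the shortest class with a median of 0.725 kb. Over all tested genes the polysomal ratio in the dark had a Pearson r of -0.62 with length, and over the 39 members it had -0.48 in the dark and -0.62 in the light, as descriptions in which length enters RPKM. Among the 9215 tested genes of 0.58 to 1.72 kb, 27.7% were higher in polysomal mRNA in the dark, with a median of 0.38, and 21.8% in the light, with a median of 0.22. After the trend with length was removed, the members' medians were 1.58 in the dark and 1.10 in the light, with 30 and 23 members higher. The medians of all tested genes were then -0.02 and -0.008, and their share past 2-fold on that scale was not counted. The class medians were then 1.43, 1.66 and 1.70 in dark and 0.95, 1.25 and 1.41 in light libraries for large subunit, small subunit and plastid-specific members, values that lie closer together than before. For some members the polysomal RPKM rest on a shorter length than the deposited one, 49.0% of it in PRPL17, 73.6% in PRPS21, 76.1% in PRPS10, 79.5% in PRPL31 and 82.8% in PRPL34. With reads scaled by the deposited length, the ratios of PRPL17 were 1.74 in place of 2.81 in the dark and 1.40 in place of 2.47 in the light. In the light PRPL34 then stood at 2.66, behind PSRP5 at 2.78 and PSRP6 at 2.68, and in the dark PSRP6 at 3.46 stood before PRPL18 at 3.35. The small subunit median in the dark was then 2.14 in place of 2.53.

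**Figure D3:**
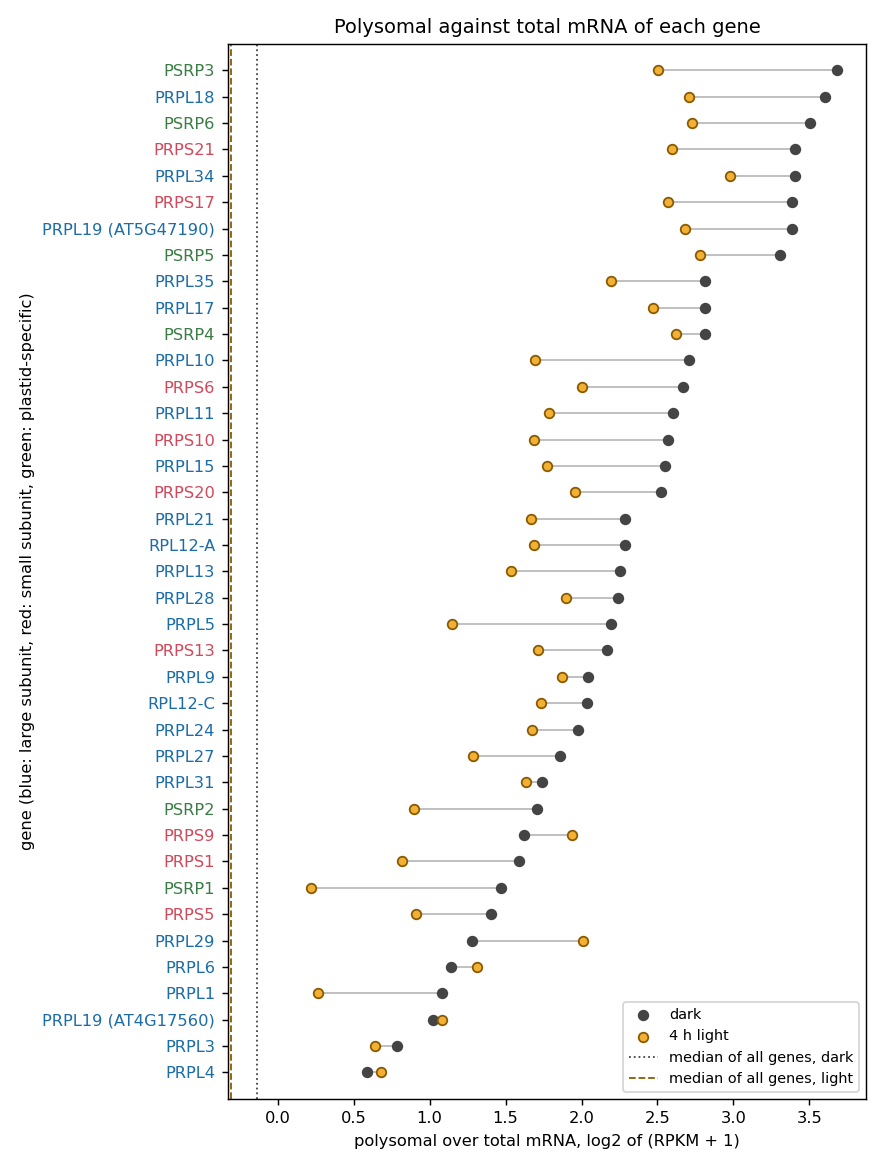
Log2 ratio of (RPKM + 1) of polysomal over total mRNA for each of the 39 members, grey for the dark and yellow for the light, joined by a line and sorted by the dark value, with broken lines at the medians of all tested genes. All points lie right of those medians, and 34 members have the yellow point left of the grey one.

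The polysomal ratio was lower in light than in dark for 34 of 39 members, where the same held for 70.4% of all tested genes; with centred ratios PRPL3, PRPL9, PRPL31 and PSRP4 lay above 0, by at most 0.0958. The median difference was -0.60 for the members and -0.18 for all tested genes, and 31 members lay below the latter. By class the medians were -0.50, -0.67 and -0.79 for large subunit, small subunit and plastid-specific members, and all 6 plastid-specific members lay below 0, with PSRP4 above it after centring or removal of the length trend. At least 2-fold lower were 4 members, PSRP1 at -1.25, PSRP3 at -1.18, PRPL5 at -1.05 and PRPL10 at -1.01, where 3.27% of all tested genes were; with centred ratios or with the length trend removed 1 member stayed past 2-fold. The opposite direction was found for PRPL29 at 0.73, PRPS9 at 0.32, PRPL6 at 0.17, PRPL4 at 0.09 and the PRPL19 gene AT4G17560 at 0.06, with 0 members at least 2-fold higher, as were 0.741% of all tested genes. Because this difference is also the polysomal minus the total light ratio, it shares all 4 libraries with the comparisons above.

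In bacteria the stalk protein at the tip of the factor-binding stalk is the one ribosomal protein present in several copies per ribosome, and Arabidopsis has 3 neighbouring genes for its plastid form. RPL12-A (chr3:10318455-10319920, plus strand) had 52.1 RPKM in the dark and 191 RPKM in the light in total mRNA, 3.67-fold (3.54 to 3.80), and 258 and 617 RPKM in polysomal mRNA, 2.40-fold (2.35 to 2.44). RPL12-C (chr3:10324788-10325746, plus strand) had 61.5 RPKM in the dark and 196 RPKM in the light in total mRNA, 3.20-fold (3.09 to 3.31), and 255 and 656 RPKM in polysomal mRNA, 2.57-fold (2.53 to 2.62). The genes contributed nearly equally, RPL12-A giving 45.9%, 49.3%, 50.3% and 48.5% of their sum in total dark, total light, polysomal dark and polysomal light. Their sum was 2.41 and 2.80 times the median of the other 37 members in total dark and light, and 2.31 and 2.57 times on polysomes. Of the other 37 members, 2 exceeded that sum in total dark, 0 in total light and 1 in each polysomal library.

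The coding sequences of RPL12-A and RPL12-C are identical at 527 of 564 aligned bases (93.4%), and the deposited polysomal reads of both genes are not whole, so the split between them is uncertain where reads fit both. RPL12-B, between them at chr3:10323354-10323950, shares 77.8% of aligned bases with RPL12-A and 78.3% with RPL12-C. The last 90 coding bases of the 3 genes, read from the RefSeq annotation of assembly TAIR10.1, show how close the copies are. Capitals mark the 17 bases where RPL12-B differs from RPL12-A, and RPL12-C has 0 differences there.
RPL12-A: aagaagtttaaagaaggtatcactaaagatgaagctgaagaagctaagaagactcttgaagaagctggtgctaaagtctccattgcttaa
RPL12-B: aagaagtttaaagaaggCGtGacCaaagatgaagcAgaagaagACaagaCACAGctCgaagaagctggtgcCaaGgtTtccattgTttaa
RPL12-C: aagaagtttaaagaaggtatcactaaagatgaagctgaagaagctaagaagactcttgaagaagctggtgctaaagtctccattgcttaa

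PRPL19, whose bacterial counterpart lies at the contact between the subunits, is encoded by 2 genes on different chromosomes with 82.6% identical aligned coding bases. AT5G47190 (chr5:19164184-19166135) had 22.5 RPKM in the dark and 77.5 RPKM in the light in total mRNA, 3.44-fold (3.25 to 3.64), and 245 and 503 RPKM in polysomal mRNA, 2.05-fold (2.01 to 2.09). AT4G17560 (chr4:9780224-9782183) had 26.5 RPKM in the dark and 75.7 RPKM in the light in total mRNA, 2.86-fold (2.72 to 3.00), and 54.9 and 162 RPKM in polysomal mRNA, 2.94-fold (2.84 to 3.04). In total mRNA the genes were nearly equal, AT5G47190 giving 45.9% of the sum in dark and 50.6% in light, but in polysomal mRNA it gave 81.7% and 75.7%. Their polysomal ratios were accordingly far apart, log2 3.39 against 1.02 in the dark and 2.68 against 1.08 in the light.

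The other parts of the plastid translation machinery resembled the members in some comparisons and differed from them in others. Of the ribosomal proteins encoded in the plastid, 17 gene entries could be tested, and 1 was higher and 0 lower in total mRNA in light, with a median log2 ratio of 0.31. Their extremes in total mRNA were rpl2 at 1.05 and rps7 at -0.44. In polysomal mRNA they were less abundant than in total mRNA, with 9 of 17 lower in the dark and a median of -1.02. Plastid transcripts largely lack the long poly(A) tails used for purification here, the entry with the fewest polysomal reads had 0, and rpl2 and rps7 lie in the repeated part of the plastid genome, where reads cannot be assigned to 1 copy.

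Plastid translation factors, which start, extend and end translation, were higher in total light in 10 of 12 cases with a median of 1.74, from -0.21 for an initiation factor IF3 gene (SVR9L1) to 3.14 for the elongation factor EF-G (SCO1). Plastid ribosome assembly factors were higher in 11 of 12 cases with a median of 1.65, from 0.63 for the GTPase DER to 2.28 for RBF1. Light ratios in both lists were thus close to the 1.61 of the ribosomal proteins. Their polysomal ratios were lower. In the dark 3 of 12 translation factors and 2 of 12 assembly factors were higher in polysomal mRNA, with medians of 0.58 and 0.23, and in the light the medians were -0.06 and -0.82. These genes are longer, with medians of 1.77 and 2.19 kb against 1.00 kb, and with the length trend removed the medians in the dark were 0.63 and 0.77 beside 1.58 for the plastid ribosomal proteins.

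Photosystem subunits encoded in the nucleus had larger light ratios, with 26 of 26 higher and a median of 2.55 in total mRNA, from 1.06 for PSAE2 to 4.62 for PSB28. Their polysomal ratio in the dark, had a median of 2.65, beside 2.25 for the plastid ribosomal proteins. Ribosomal proteins of the cytosol had 0 of 28 members past 2-fold in light in total mRNA, with a median of 0.29, from -0.33 for RPS18C to 0.75 for RPS28B. They too were more abundant in polysomal mRNA, 20 of 28 in the dark with a median of 1.75, or 11 of 28 with a median of 0.81 after removal of the length trend. Their polysomal ratio was slightly higher in light than in dark, with a median difference of 0.13 against -0.60 for the plastid ribosomal proteins. The same difference had medians of -0.29 for photosystem subunits, -0.57 for plastid translation factors and -0.77 for plastid ribosome assembly factors. It lay below 0 for 20 of 26, 10 of 12 and 12 of 12 genes of these lists, so a lower ratio in light was not particular to the plastid ribosomal proteins.

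**Figure D4:**
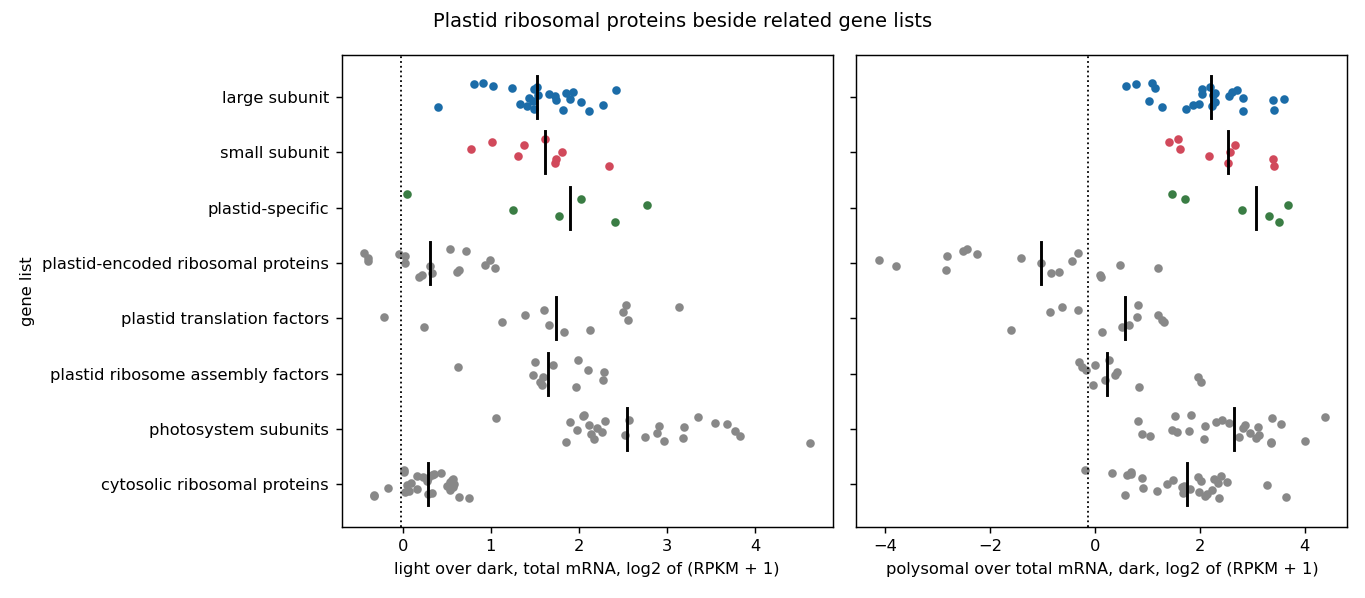
Log2 ratios of (RPKM + 1) for each gene of the 3 member classes (coloured) and 5 related lists (grey), light over dark in total mRNA on the left and polysomal over total mRNA in the dark on the right, with a bar at each list's median and a dotted line at the median of all tested genes. By their medians the plastid ribosomal proteins lie between cytosolic ribosomal proteins and photosystem subunits in the left panel, and right of the translation and assembly factors in the right panel, while single genes of the lists overlap.

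The 250 bases before the annotated start of each member were searched on both strands for 4 short elements named in work on plant ribosomal and photosynthetic genes. The site II element, TGGGCC or TGGGCT, was found in 15 of 40 members (37.5%), in 19.2% of the promoters of 27443 protein-coding genes and in 23.3% of those of the 17219 tested genes with a promoter window. It was found in 6 of 9 small subunit, 7 of 25 large subunit and 2 of 6 plastid-specific members, and in 64.3% of the cytosolic ribosomal protein genes listed. The telo box AAACCCTA was found in 5 members (12.5%, against 4.49% of all and 3.46% of tested genes), the G-box CACGTG in 3 (7.5%, against 6.49% and 7.61%), and the S1F core ATGGTA in 3 (7.5%, against 10.97% and 10.7%). None of these motifs contains another, and site II matches on opposite strands can overlap each other. Members with and without site II had similar light ratios in total mRNA, medians of 1.501 over 14 and 1.66 over 25 measured members. The 4 measured members with a telo box, PRPL1, PRPL4, PRPS5 and PSRP4, had light ratios of 0.91, 1.03, 1.02 and 1.25, all below the median member. The windows of many members, PRPL1, PRPL4 and PSRP4 among them, also hold part of another annotated gene.

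The promoters of 2 members are shown to set extremes side by side. That of the PRPL19 gene AT4G17560 holds 5 site II matches, the most of any member, in capitals below, and that of PSRP3, the member with the highest light ratio in total mRNA, holds none of the 4 elements. They were read from TAIR10.1 and written on the strand of the gene, and no other annotated gene lies in these windows. The windows are chr4:9779974-9780223 (plus strand) and chr1:25758412-25758661 (minus strand). A match is a description of the letters and was not tested as a binding site. The promoter of PSRP1, the member with the lowest light ratio in total mRNA, log2 0.05, also holds none of the 4 elements. The light ratio of AT4G17560 in total mRNA, log2 1.48, lay below the members' median of 1.61. Whether these elements bear on the light ratio was not tested.
PRPL19 AT4G17560: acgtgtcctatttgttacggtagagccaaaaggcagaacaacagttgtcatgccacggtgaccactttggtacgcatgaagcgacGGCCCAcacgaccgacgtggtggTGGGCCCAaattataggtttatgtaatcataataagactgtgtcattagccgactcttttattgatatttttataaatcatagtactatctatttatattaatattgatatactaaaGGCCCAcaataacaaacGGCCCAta
PSRP3: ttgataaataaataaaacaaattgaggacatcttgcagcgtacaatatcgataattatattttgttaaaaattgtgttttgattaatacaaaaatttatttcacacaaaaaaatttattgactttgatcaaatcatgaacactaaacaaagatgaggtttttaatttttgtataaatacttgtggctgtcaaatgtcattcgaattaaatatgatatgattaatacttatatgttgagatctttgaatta

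The splicing tables hold few events of these genes. Of the 34 members with an intron and at least 10 RPKM in total mRNA, 6 (17.6%) had an event, against 56.9% of 8479 such genes, but the members have fewer introns, a median of 2 against 5. The 7 events were 6 retained introns and 1 alternative donor and acceptor. By the authors' criteria, a p under 0.01 and a ratio of at least 1.5, 2 of the 7 differed between dark and light in total mRNA, where 17.0% of all 22449 events did. The deposited p-values compare the reads of single libraries, not the conditions.

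Both of those were retained introns that were more frequent in the light, in PRPL4 and PRPL15. Intron 1 of PRPL4 (chr1:2250022-2250172, plus strand), the single intron of the gene, was retained in 18 of 872 reads in total dark, 2.06% (1.23 to 3.24), and in 225 of 2945 in total light, 7.64% (6.71 to 8.66), with p = 1.67e-09 in the authors' deposited table. Its polysomal percentages in the authors' deposited table were 2.22% and 5.48%. Intron 1 of PRPL15 (chr3:9492404-9492474, minus strand) was retained in 11 of 577 reads, 1.91% (0.96 to 3.39), in the dark and 181 of 2829, 6.398% (5.52 to 7.36), in the light, with p = 1.55e-05 in the authors' deposited table. On polysomes the authors' deposited table gives 1.04% and 2.11%, for which the depth is unknown. In each gene the binomial intervals of dark and light in total mRNA were well apart, and they cover counting error only.

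PRPL15 lies over AT3G25910 on the opposite strand, which had 103.6 RPKM in total dark and 49.5 RPKM in total light, 279% and 39.4% of PRPL15. PRPL1, PRPL5 and PRPS6 also border on genes that overlap them, and these had 71.0, 49.1 and 79.8 RPKM in total dark, 90.8%, 104% and 151% of the member itself. Whether reads of the overlapping genes enter the counts of these 4 members, and so their light and polysomal ratios given above, was not tested. In total light the genes that overlap PRPL1, PRPL5 and PRPS6 were lower, at 45.8, 38.6 and 73.8 RPKM, while the members were higher.

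Both introns lie within the coding sequence, and their length, 151 and 71 bases, is no multiple of 3. The intron of PRPL4 follows 832 of 849 coding bases, and an in-frame stop begins at its base 3, close to the end of the coding sequence. Of its 4 annotated models, 1 has this intron as exon. The intron of PRPL15 follows 84 of 834 coding bases, with an in-frame stop from its base 37. The splice sites are shown because they bound the retained stretch. Each line gives 6 exon and 14 intron bases at the donor, then 20 intron and 5 exon bases at the acceptor on the line after, with the first and last intron bases in capitals.
PRPL4 donor: cggaagGTtagtgttttctt
PRPL4 acceptor: tatttgtttgtgttatgaAGggtca
PRPL15 donor: ttcaagGTaatctctcattc
PRPL15 acceptor: ggaatttgaaatgtgtacAGggaaa

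The other 5 events were not called by those criteria. Intron 4 of PRPL19 AT4G17560 (chr4:9781250-9781643) was retained in 3.39% (1.99 to 5.38) of 501 reads in the dark and 6.30% (5.20 to 7.56) of 1714 in the light, with p = 0.0113 in the authors' deposited table, and a Benjamini-Hochberg adjustment of the authors' p-values over all events gave 0.0458. Intron 1 of PRPS6 (chr1:23955236-23955824) was retained in 5.13% (3.16 to 7.81) and 8.36% (6.23 to 10.9), with p = 0.0466 in the authors' deposited table. Intron 1 of PRPL1 (chr3:23444599-23444672) stood at 5.90% (4.41 to 7.70) and 7.25% (6.14 to 8.50), with p = 0.177 in the authors' deposited table. The intervals of dark and light overlap for each of these 3. Intron 1 of PRPL28 (chr2:14173819-14174147) was the 1 retained intron with the lower percentage in light, 5.01% (3.89 to 6.34) and then 4.10% (3.45 to 4.83), with p = 0.162 in the authors' deposited table. The alternative donor and acceptor of PRPL1 stood at 6.46% and 4.57%, with p = 0.0882 in the authors' deposited table.

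**Figure D5:**
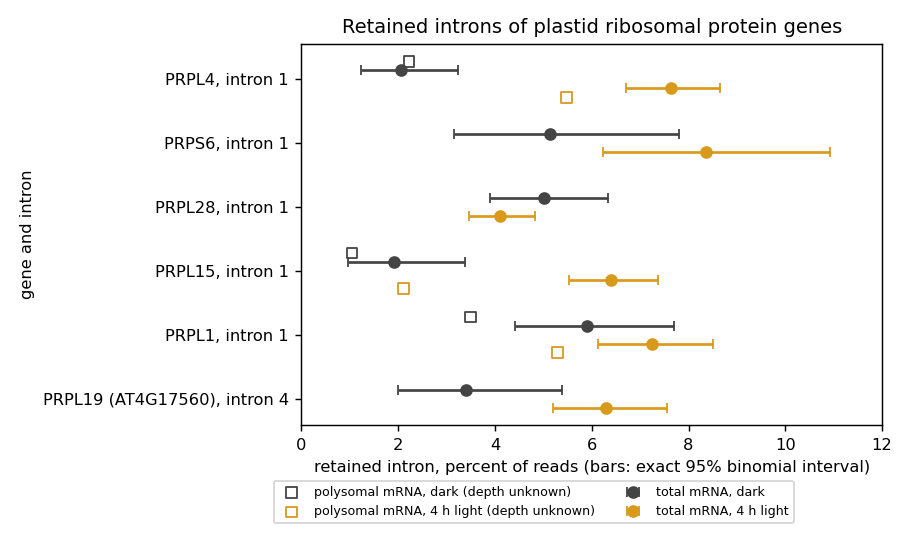
Percent of reads with the intron retained for the 6 retained introns of member genes, filled circles for total mRNA with exact 95% binomial intervals and open squares for polysomal mRNA where deposited, dark grey for the dark and yellow for the light. The intervals of dark and light are apart for PRPL4 and PRPL15, while those of the other 4 introns overlap.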

How the data were processed

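The report rests on the deposited tables for 4 libraries, 1 in each group, of total and polysomal mRNA. The genome build is TAIR10, per the submitters' processing notes, and which aligner and counter were used, and whether strand was, is not given in the sources used here. Per the file headers, the gene table holds read counts of total mRNA and estimated counts of polysomal mRNA, of which 19.8% in dark and 20.4% in light are not whole, RPKM made by the authors per kilobase and library size, and the authors' log2 ratio of light over dark, which was not used. Of the members, 11 have polysomal reads that are not whole and 16 overlap another annotated gene. The deposited event tables give event reads, the percent of reads with the event and an unadjusted chi-square p-value by the authors. The reads behind each percent were computed from event reads and percent and were whole within 0.01 for the members' events.

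Log2 ratios of (RPKM + 1) were taken for 17684 genes whose mean reached 1 RPKM, with no further scaling, and members past 2-fold in either direction were counted beside all tested genes. A fold is the ratio of RPKM with an exact 95% binomial interval from the reads, with estimated counts rounded, for counting error only. The ratios and intervals were tried on counts simulated from the total dark library with counting error only. That simulation holds no variation between libraries or RNA fractions and cannot speak to it. RefSeq sequences and coordinates are of assembly TAIR10.1, and 40 of 40 members were matched by locus. The promoter sequences of the other 38 members are not reported here. The members and lists were chosen with earlier results of these data known. All members are named, with the values of the highest and lowest in each comparison, of gene copies and of plastid-specific proteins, and of other lists the highest and lowest gene in total mRNA. Other pseudocounts, filters, scalings, a length correction and other call rules for events were tried. Python 3.11.15, pandas 2.3.3, SciPy 1.17.1 and statsmodels 0.14.6 were used.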

Additional observations from a re-analysis of the deposited data

Results flagged for a closer look

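PSRP1, the homologue of bacterial hibernation factors, stands apart because its light ratio had opposite signs in the RNA fractions. The log2 ratio of light over dark was 0.0517 in total mRNA and -1.20 in polysomal mRNA. The difference between these ratios was not tested, since each group is 1 library. The small positive value in total mRNA became -0.0034 when library sums over nuclear genes were set equal and -0.06 when the trend with gene length was removed. The polysomal value stayed negative under all 8 alternatives, of which the changed filters on the mean level could not alter it. The locus overlaps AT5G24500 and its polysomal reads are not whole, and the part of these in the result was not tested.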

How the results depend on the processing

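No paired analysis was possible because each group is 1 library and the labels carry no replicate numbers, and for the same reason no library could be left out in turn. Each expression result was recomputed under 8 alternatives. Among them, no filter on the mean and a mean of at least 5 RPKM could not change a member's ratio, because all 39 measured members passed both. The count of members higher in light stayed between 32 and 34 in total mRNA (34 as reported) and between 23 and 33 on polysomes (26), and the count with a higher level in polysomal mRNA between 30 and 37 in dark (37) and between 23 and 35 in light libraries (32). The 1 member lower on polysomes in light, PSRP1, became 0 with ratios centred on the median of genes averaging 5 RPKM or more. The 4 members with a polysomal ratio at least 2-fold lower in light became 2 with a pseudocount of 5, 1 with centred ratios and 1 with the trend with gene length removed. Centring raised the median of all genes by 0.22 for the polysomal light ratio, 0.28 for the polysomal ratio in light and 0.21 for the difference of polysomal ratios. Setting nuclear sums equal lowered both polysomal ratios, by 0.50 in dark and 0.49 in light libraries, where the members' medians were then 1.67 and 1.14. Removing the length trend raised the median of all genes by 0.12, 0.12, 0.30 and 0.18 for the 4 results other than the light ratio in total mRNA, and a pseudocount of 5 by 0.13 for the polysomal ratio in light. Of the members' ratios, 7 changed sign under 1 or 2 alternatives, to values from -0.38 to 0.0958, and 4 of these are differences of polysomal ratios. The count of 2 called splicing events was 3 with adjusted p-values, PRPL19 AT4G17560 being added, and 2 with at least 10 event reads or a ratio of at least 2.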
